A study of Rattus norvegicus with 53 samples.

Results

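Il10, Tgfb1, Ctla4, Il2ra and Il2rb, immune regulatory genes, were followed in rat blood mononuclear cells cultured with different sera. They were chosen by name, as the probe sets that the array annotation gives to these symbols alone. Each of the 5 genes had 1 probe set, 5 in all of the 31042 tested, and the probe sets were Il10 1387711_at, Tgfb1 1370082_at, Ctla4 1387638_a_at, Il2ra 1387591_at and Il2rb 1387394_at. The annotation used here gives no coordinates, so the genes are named by symbol and probe set only.

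Peripheral blood mononuclear cells (PBMCs) of healthy male BN (Brown Norway) rats aged 180 days were cultured for 6 h with 20% plasma or serum (called serum here), and RNA was measured on Affymetrix rat arrays, 53 arrays in 8 groups. Every group therefore shares the same kind of responding cell, and what differs is the donor of the serum or what was added to it. Serum of DRlyp/lyp rats aged 60 days (d60) was given to 4 arrays with IL-1RA added and to 4 arrays without, and serum of d60 DR+/+ rats to 4 arrays. IL-1RA is the natural antagonist of the interleukin-1 receptor. Another 6 arrays had serum of 40-day-old (d40) DRlyp/lyp rats that had received human IL-1RA at 350 ug/kg/day for 10 days by daily injection, and 6 had serum of PBS-treated d40 DRlyp/lyp rats (saline). Autologous BN serum with added IL-1B was used on 4 arrays, allogeneic BN serum (from other BN rats, 180 days) on 15 and autologous BN serum (180 days) on 10. DRlyp/lyp and DR+/+ are related lines of the BioBreeding (BB) rat. The DRlyp/lyp rats lack most T cells and develop autoimmune diabetes, while DR+/+ rats do not develop it spontaneously. The sample labels of the d40 IL-1RA arrays say that the antagonist was added to the serum, whereas the design text has the rats themselves treated, and the design was followed. The concentrations of IL-1B and IL-1RA in the cultures are not given in the sources used here. Nothing in the labels ties the replicates to different animals or cultures, so p-values measure only the spread between arrays.

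Immune regulation in blood cells runs through a few secreted factors and receptors. Interleukin-10 and TGF-beta1 are secreted factors that restrain activated T cells and macrophages, and TGF-beta1 is stored in an inactive form that platelets and many leukocytes carry. Interleukin-2 signals through the chains Il2ra (CD25), Il2rb (CD122) and a shared gamma chain. Il2ra is abundant on regulatory T cells and on recently activated T cells, and Il2rb is carried by natural killer cells and memory T cells. Ctla4 is an inhibitory receptor that competes with CD28 for the ligands CD80 and CD86, and regulatory T cells hold it constantly.

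The arrays fell into 2 sets that the labels do not name. The first set held 21 arrays, namely all d40 sera, autologous replicates 1 to 6 and allogeneic replicates 1 to 3, and the second held the other 32. Ward clustering and k-means on all probe sets each placed 53 of 53 arrays in these sets, and 49.9% of the variance lay on principal component 1. Between autologous arrays alone, 55.0% of probe sets differed between the sets (limma, adjusted p under 0.05). All comparisons of sera were therefore made within a set, and d40 serum cannot be told apart from the first set when it is set against d60 serum. Markers of PBMC cell types were present: 12 of 14 T-cell genes, 6 of 6 B-cell genes, 8 of 11 natural killer and cytotoxic genes and 6 of 11 monocyte genes lay above the background threshold defined below. So did 10 of 10 platelet genes and 6 of 6 erythroid genes, but only 1 of 7 neutrophil genes. No 2 arrays held identical values. Precision is set by how many arrays each serum had, from 3 to 12 within a set.

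How close each gene lay to background was read from 50 probe sets of 39 genes typical of other tissues, such as insulin, albumin and rhodopsin. The highest of these probe sets averaged 8.91, so the list need not be background throughout. A gene was called near background when its mean over the 53 arrays was at or under the 90th percentile of those probe sets, a log2 level of 5.90, whose median was 4.07. By this rule Il10, Ctla4, Il2ra and Tgfb1 were near background and Il2rb was not. The threshold lay above the median of all tested probe sets, 5.46, so the rule puts most of the array near background. The share of all probe sets with a lower mean was 14.6% for Il10, 41.6% for Ctla4, 51.7% for Tgfb1, 57.1% for Il2ra and 78.2% for Il2rb. Probes differ in how strongly they bind, so these positions rank no gene against another. Il10 averaged 3.69 (SD 0.36, n = 53), below the median of the other-tissue probe sets, with 9 of the 50 beneath it, and 0 of 53 arrays passed 5.90. Ctla4 averaged 4.98 (SD 0.22) with 39 of the 50 beneath it, and again 0 of 53 arrays passed. Tgfb1 averaged 5.56 (SD 0.30) with 42 beneath it, and 9 of 53 arrays passed.

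Il2ra stood on the threshold itself. It averaged 5.90 (SD 0.17), equal to the threshold to 2 decimals and under it by less than that, with 45 of the 50 probe sets beneath it and 26 of 53 arrays above. In the first set, where the same percentile was 5.51, its mean of 5.93 was above, and in the second, where the percentile was 6.11, its mean of 5.88 was below. Il2rb averaged 7.59 (SD 0.40) with 49 of the 50 beneath it, and 53 of 53 arrays passed. Near background the deposited values compress differences, so the comparisons of Il10, Ctla4 and Tgfb1 can understate a change. Those of Il2ra can too, at least in the second set.

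**Figure D1:**
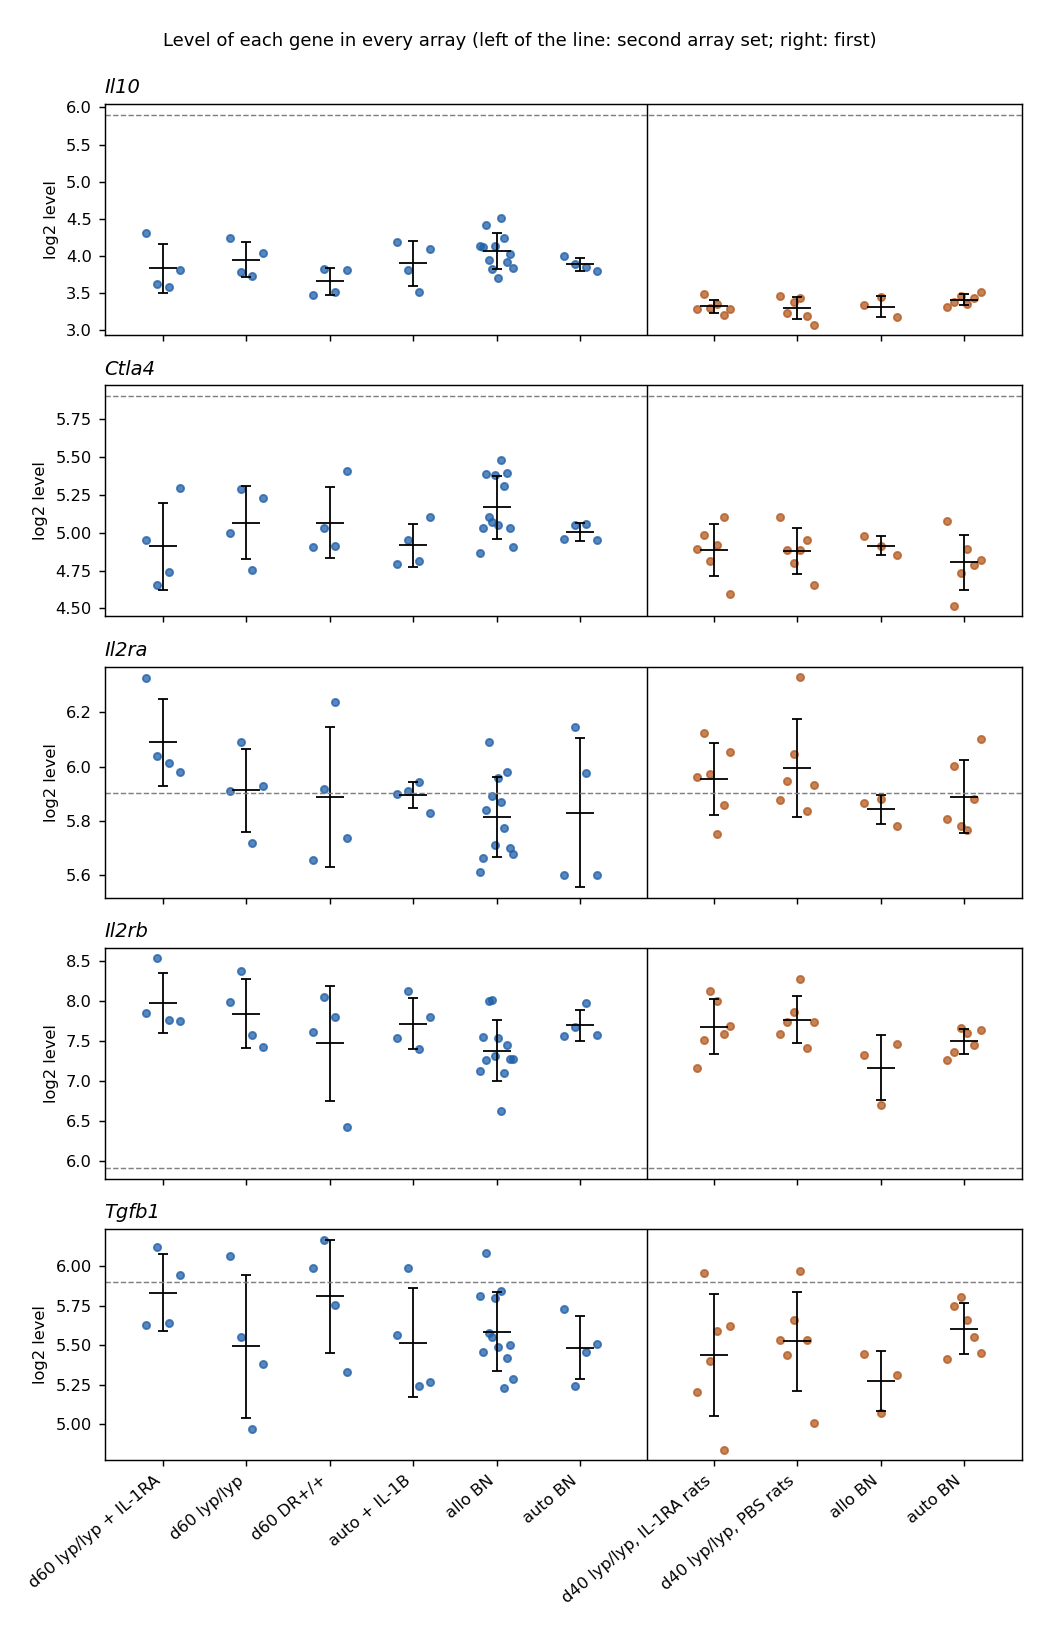
Log2 level of each gene in every array, by serum. Points are arrays (blue for the second array set, brown for the first), the bar and whiskers are the mean and SD, and the dashed line is the background threshold of 5.90. Il10 and Ctla4 lie under the line in every array and Il2rb above it in every array, while Il2ra lies across it; the vertical scales differ between panels.

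Il10, the cytokine that restrains macrophages and T cells, was low in every group. In the second set its level was 4.31, 3.63, 3.58 and 3.81 with d60 DRlyp/lyp serum plus IL-1RA. It was 4.24, 3.79, 3.73 and 4.04 with d60 DRlyp/lyp serum, and 3.48, 3.82, 3.52 and 3.81 with d60 DR+/+ serum. The lowest 2 of these 12 arrays were DR+/+ replicates 1 and 3, and each group overlapped the others. Autologous serum plus IL-1B gave 4.19, 3.81, 3.52 and 4.10. Allogeneic BN serum gave a lowest value of 3.70, a median of 4.07 and a highest of 4.51 over 12 arrays, and autologous BN serum gave 4.01, 3.89, 3.85 and 3.80. The order of the means ran from allogeneic (4.07) through d60 DRlyp/lyp (3.95), IL-1B (3.90), autologous (3.89) and d60 DRlyp/lyp plus IL-1RA (3.83) to d60 DR+/+ (3.66), and no pair of neighbours in that order differed by more than its pooled SD.

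In the first set Il10 was lower throughout. The lowest, median and highest values were 3.21, 3.30 and 3.49 with serum of d40 IL-1RA-treated rats and 3.08, 3.31 and 3.46 with serum of d40 PBS-treated rats (6 arrays each). Allogeneic serum gave 3.33, 3.45 and 3.18, and autologous serum ran from 3.31 to 3.52 with a median of 3.41 over 6 arrays. These groups overlapped one another, although the autologous mean (3.41) exceeded the next, that of d40 IL-1RA serum (3.32), by 0.0876, just more than their pooled SD of 0.0841. Of the second set, DR+/+ replicate 1 alone, at 3.48, lay under the highest array of the first. Autologous serum averaged 3.41 ± 0.07 (SD, n = 6) in the first set and 3.89 ± 0.09 (n = 4) in the second, and these groups did not overlap. That difference of -0.48 passed (limma, SE 0.13, adjusted p = 0.00182). It was 1 of 5 genes called, beside 55.0% of all probe sets, 35.5% being lower in the first set. The median difference over all probe sets was -0.16, and with each array centred on its own median Il10 stood at -0.34 (adjusted p = 0.0156). After a second quantile normalization it stood at -0.25 and was not called (adjusted p = 0.0757), while Il2rb was, at -0.53 (adjusted p = 0.0478, against -0.20 and 0.478 as deposited). Of the 50 other-tissue probe sets 32 were called lower and their median was -0.36. With their mean level as a covariate the Il10 difference was -0.06 (limma, adjusted p = 0.857), and the calls over all probe sets fell to 2722. That mean ran from 4.16 to 4.41 in the autologous arrays of the first set and from 4.49 to 4.72 in those of the second. As these do not overlap, the covariate cannot be told apart from the set here.

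Tgfb1, the other secreted factor, varied more between arrays of one serum than between sera. In the second set it averaged 5.83 ± 0.24 with d60 DRlyp/lyp serum plus IL-1RA, 5.49 ± 0.46 with d60 DRlyp/lyp serum and 5.81 ± 0.36 with d60 DR+/+ serum (SD, n = 4 each). It averaged 5.52 ± 0.35 with autologous serum plus IL-1B (n = 4), 5.59 ± 0.25 with allogeneic serum (n = 12) and 5.48 ± 0.20 with autologous serum (n = 4). The d60 DRlyp/lyp arrays alone covered 4.97 to 6.07, which spans the means of all the other groups of that set. In the first set it averaged 5.44 ± 0.39 with d40 IL-1RA serum and 5.52 ± 0.31 with d40 PBS serum (n = 6 each), 5.27 ± 0.19 with allogeneic serum (n = 3) and 5.60 ± 0.16 with autologous serum (n = 6). The lowest of all 53 arrays was d40 IL-1RA replicate 5 at 4.84 and the highest was d60 DR+/+ replicate 2 at 6.16. No neighbours in the order of means differed by more than their pooled SD in either set.

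Ctla4, the inhibitory receptor of T cells, stayed within 4.52 to 5.48 over all arrays. In the second set it averaged 4.91 ± 0.29 with d60 DRlyp/lyp serum plus IL-1RA, 5.07 ± 0.24 with d60 DRlyp/lyp serum and 5.07 ± 0.24 with d60 DR+/+ serum (SD, n = 4 each). Autologous serum plus IL-1B gave 4.92 ± 0.14 (n = 4), allogeneic serum 5.17 ± 0.21 (n = 12) and autologous serum 5.00 ± 0.06 (n = 4). Allogeneic serum held both the highest mean and the highest single array (replicate 11, 5.48), but its lowest array, at 4.86, was under the autologous ones. In the first set the means were 4.88 ± 0.17 with d40 IL-1RA serum, 4.88 ± 0.15 with d40 PBS serum (n = 6 each), 4.91 ± 0.06 with allogeneic serum (n = 3) and 4.80 ± 0.18 with autologous serum (n = 6). No neighbours in either order differed by more than their pooled SD.

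Il2ra, the chain that gives the interleukin-2 receptor its high affinity, had the narrowest spread of the 5 genes, from 5.60 to 6.33 over all arrays. In the second set its level with d60 DRlyp/lyp serum plus IL-1RA was 6.33, 6.04, 6.01 and 5.98, against 5.91, 6.09, 5.72 and 5.93 with d60 DRlyp/lyp serum alone. These means, 6.09 and 5.91, differed by 0.18, more than their pooled SD of 0.16, but the groups overlapped and the test did not call it (limma, SE 0.13, adjusted p = 1.00, with no probe set of the array called). With d60 DR+/+ serum the mean was 5.89 ± 0.26 and with autologous serum plus IL-1B 5.89 ± 0.05 (SD, n = 4 each). Allogeneic serum gave 5.81 ± 0.15 (n = 12) and autologous serum 5.83 ± 0.28 (n = 4). The autologous arrays fell in pairs, 5.60 and 5.60 against 6.15 and 5.98. Against them the difference of the IL-1RA cultures was 0.26 (95% interval 0.00 to 0.52 after rounding, adjusted p = 0.536). In the first set the means were 5.95 ± 0.13 with d40 IL-1RA serum, 5.99 ± 0.18 with d40 PBS serum (n = 6 each), 5.84 ± 0.05 with allogeneic serum (n = 3) and 5.89 ± 0.14 with autologous serum (n = 6), with no neighbours further apart than their pooled SD.

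Il2rb, the signalling chain shared by the interleukin-2 and interleukin-15 receptors, was the gene measured clearly above background and the one with the widest spread. In the second set its level was 7.84, 8.53, 7.75 and 7.74 with d60 DRlyp/lyp serum plus IL-1RA and 7.98, 8.37, 7.56 and 7.42 with d60 DRlyp/lyp serum. With d60 DR+/+ serum it was 7.61, 8.04, 7.79 and 6.41. The last of these, DR+/+ replicate 4, was the lowest of all 53 arrays. Autologous serum plus IL-1B gave 7.53, 8.12, 7.40 and 7.79, allogeneic serum ran from 6.62 to 8.01 with a median of 7.29 over 12 arrays, and autologous serum gave 7.55, 7.67, 7.97 and 7.57. All these groups overlapped. Means ran from 7.97 with d60 DRlyp/lyp serum plus IL-1RA through 7.83 with d60 DRlyp/lyp serum, 7.71 with IL-1B, 7.69 with autologous and 7.46 with d60 DR+/+ serum to 7.37 with allogeneic serum, and no neighbours differed by more than their pooled SD.

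In the first set Il2rb ran from 7.16 to 8.12 with d40 IL-1RA serum, with a median of 7.63, and from 7.40 to 8.27 with d40 PBS serum, with a median of 7.73 (6 arrays each). Allogeneic serum gave 7.32, 6.70 and 7.46, and autologous serum ran from 7.26 to 7.66 with a median of 7.52 over 6 arrays. The autologous mean, 7.49, exceeded the allogeneic one, 7.16, by 0.33, which was more than their pooled SD of 0.26, although the arrays overlapped. The allogeneic minus autologous difference of -0.33 was not called (95% interval -0.86 to 0.19, adjusted p = 0.705), and in the second set it was -0.32 (-0.75 to 0.11, adjusted p = 0.445). Allogeneic replicate 2 of the first set, at 6.70, also had the lowest value, 0.76, of the actin signal at its 3′ end over that at its 5′ end (log2). DR+/+ replicate 4 had the next lowest of all 53 arrays, 1.13. This ratio rises as RNA degrades, so a low value is no sign of degraded RNA. It differed between groups, at 0.76 to 3.60 in allogeneic and 3.20 to 4.31 in autologous arrays of the first set. Autologous arrays of the second set had 2.37 to 2.78. With the ratio as a covariate, calls for allogeneic against autologous serum in the first set fell from 332 probe sets to 0. Those between autologous arrays of the sets fell from 17058 to 11092.

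The 12 comparisons of sera and 5 genes gave 60 differences, of which limma called 1 (adjusted p under 0.05, adjusted over all 31042 probe sets). In RNA from mixed cells, fewer cells of a type and less RNA per cell cannot be told apart. The intervals say how large a difference the arrays could still hide. Over the 12 comparisons the 95% intervals stayed within -0.51 and 0.57 for Il10, -0.44 and 0.39 for Ctla4, -0.31 and 0.52 for Il2ra, -0.75 and 0.76 for Tgfb1 and -0.86 and 0.89 for Il2rb.

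Serum of d60 DRlyp/lyp rats against autologous serum, the comparison that asks what prediabetic serum induces, called 0 of the 5 genes, beside 0.0354% of all probe sets. The log2 differences were 0.06 for Il10, 0.01 for Tgfb1, 0.06 for Ctla4, 0.08 for Il2ra and 0.14 for Il2rb. Serum of d60 DR+/+ rats against autologous serum called 0 of 5, beside 1.35%, or 0 probe sets with only the groups compared fitted. There the differences were -0.23 for Il10, 0.33 for Tgfb1, 0.06 for Ctla4, 0.06 for Il2ra and -0.23 for Il2rb. None of these differences had an unadjusted p under 0.05 (limma), against 5.98% and 15.8% of all probe sets. Both comparisons share their 4 autologous arrays with those of IL-1B, of IL-1RA in culture and of allogeneic serum in the second set, and the d60 arrays serve several comparisons too. The d60 arrays share no replicate numbers with these autologous arrays, so no pairing was fitted.

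Serum of d60 DRlyp/lyp rats against serum of d60 DR+/+ rats, which sets the diabetic line against its relative, called 0 of 5, beside 0% of all probe sets. Without adjustment 6% of probe sets had a p under 0.05, and Il10 was 1 of them. It was higher by 0.29, at 3.95 ± 0.24 with DRlyp/lyp serum and 3.66 ± 0.18 with DR+/+ serum (SD, n = 4 each), with overlapping arrays (limma, 95% interval 0.01 to 0.57, adjusted p = 0.812). Il2rb stood at 0.37 (-0.15 to 0.89) and Tgfb1 at -0.32 (-0.73 to 0.10), and Ctla4 and Il2ra at 0.00 and 0.02. The DR+/+ arrays of that Il2rb comparison include replicate 4, the lowest of all.

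Interleukin-1 was tested in culture from both sides. Autologous serum plus IL-1B against autologous serum called 0 of 5, beside 0% of all probe sets, with differences of 0.02 for Il10, 0.03 for Tgfb1, -0.09 for Ctla4, 0.06 for Il2ra and 0.02 for Il2rb. IL-1RA added to d60 DRlyp/lyp serum called 0 of 5 against that serum alone, beside 0%. Those differences were -0.12 for Il10, 0.34 for Tgfb1, -0.16 for Ctla4, 0.18 for Il2ra and 0.13 for Il2rb. Against autologous serum the cultures with IL-1RA called 0 of 5, beside 0.0548%, at -0.05 for Il10, 0.35 for Tgfb1, -0.09 for Ctla4, 0.26 for Il2ra and 0.27 for Il2rb. At an unadjusted p under 0.05 none of the 5 genes passed in these 3 comparisons, against 3.61%, 3.08% and 9.46% of all probe sets.

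IL-1RA given to the rats was read from d40 serum in the first set, where the comparisons share d40 and autologous arrays. Serum of IL-1RA-treated against PBS-treated rats called 0 of 5, beside 0.00322% of all probe sets, which is 1 probe set, or 3 with the replicate number as a block. The differences were 0.02 for Il10, -0.09 for Tgfb1, 0.00 for Ctla4, -0.04 for Il2ra and -0.09 for Il2rb. Serum of d40 PBS-treated rats against autologous serum called 0 of 5, beside 0%, and serum of d40 IL-1RA-treated rats against autologous serum called 0 of 5, also beside 0%, or 4 probe sets with the replicate block. None of the 5 genes had an unadjusted p under 0.05 in these comparisons, against 1.97%, 3.54% and 0.686% of all probe sets. The widest of these differences was Il2rb with d40 PBS serum, at 0.27 (95% interval -0.16 to 0.70).

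Allogeneic against autologous BN serum, the control for foreign serum of the same strain, could be measured in both sets. It called 0 of 5 in the second set, beside 0.00966% of all probe sets, and 0 of 5 in the first, beside 1.07%. With only the groups compared fitted, the first set gave 3 probe sets. Differences in the first and in the second set were -0.09 and 0.18 for Il10, -0.33 and 0.10 for Tgfb1, 0.11 and 0.16 for Ctla4, -0.05 and -0.02 for Il2ra and -0.33 and -0.32 for Il2rb. None had an unadjusted p under 0.05 (limma), against 11% and 17.6% of all probe sets. The difference between the sets was itself tested and called 0 of 5, beside 0.696%, with the lowest adjusted p at 0.543, for Tgfb1. With the sets pooled, which mixes arrays of both, Il10 stood at 0.32 (adjusted p = 0.0245) and Ctla4 at 0.23 (adjusted p = 0.0305), and 12614 probe sets were called in place of 332 in the first set and 3 in the second.

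**Figure D2:**
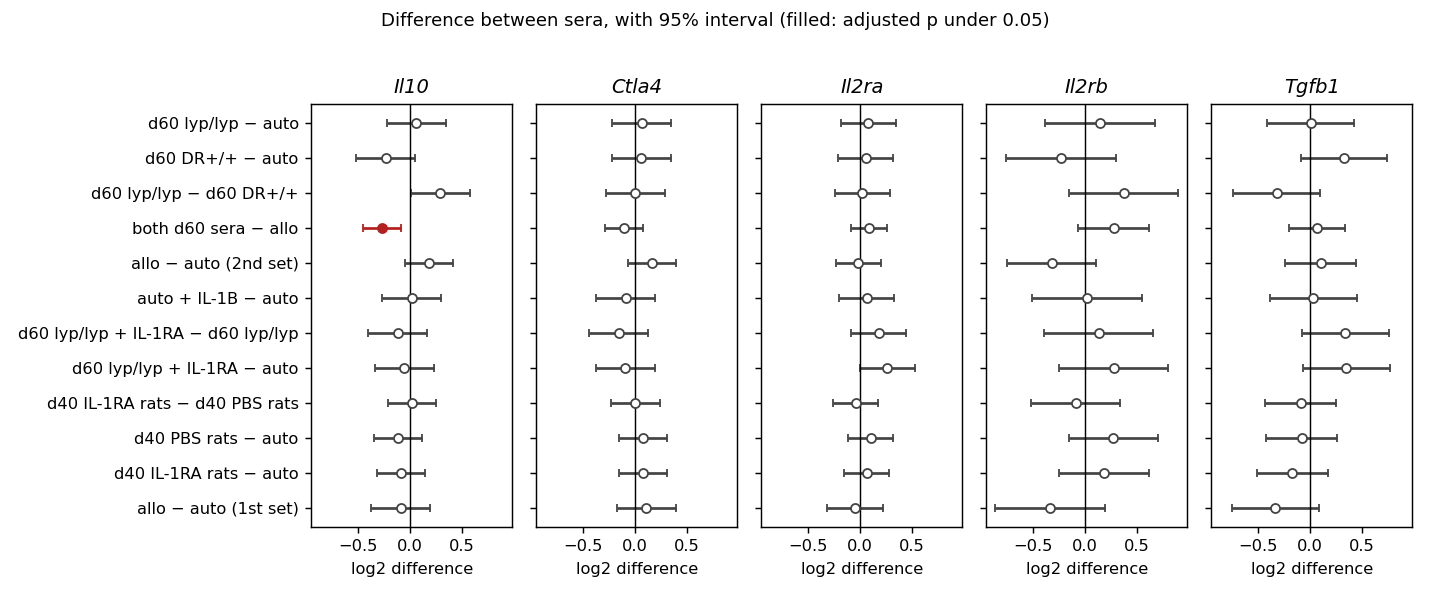
Log2 difference of each gene (columns) in the 12 comparisons of sera (rows), with its 95% interval from limma. A filled point has an adjusted p under 0.05. One point of 60 is filled, Il10 with both d60 BB sera against allogeneic serum at -0.26, and the intervals are widest for Il2rb.

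The signal of the Il10 probe set was lower with the BB sera of d60 rats, DRlyp/lyp and DR+/+ averaged, than with allogeneic BN serum. It averaged 3.80 with the BB sera (8 arrays) and 4.07 with allogeneic serum (12 arrays), a log2 difference of -0.26 (limma, SE 0.09, 95% interval -0.45 to -0.08, adjusted p = 0.0185). On none of these arrays was Il10 above the background threshold, so this is a difference between values under that threshold. It cannot be read as the fold in Il10 RNA. The arrays overlapped, since 3.48 to 4.24 with BB sera spans much of 3.70 to 4.51 with allogeneic serum. This was 1 of 5 genes called, beside 40.3% of all probe sets, 20.9% being lower, so the 20% of the 5 genes that was called, all of it lower, does not exceed the share of the whole array. The other 4 were at 0.06 for Tgfb1, -0.10 for Ctla4, 0.09 for Il2ra and 0.28 for Il2rb (95% interval -0.06 to 0.61, adjusted p = 0.179). Il2rb passed without DR+/+ replicate 4, at 0.45 (limma, adjusted p = 0.0173). After a second quantile normalization it fell to 0.03 (adjusted p = 0.917). With the mean level of the other-tissue probe sets as a covariate it was -0.04 (adjusted p = 0.951). It stood at 0.46 with DRlyp/lyp serum alone and at 0.09 with DR+/+ serum alone, neither called.

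The call on Il10 was lost under several alternatives. Against allogeneic serum the difference was -0.41 with DR+/+ serum alone (adjusted p = 0.00894) and -0.12 with DRlyp/lyp serum alone (adjusted p = 0.452). The call was lost without DR+/+ replicate 1 (-0.23, adjusted p = 0.0508) and without DRlyp/lyp replicate 3 (-0.23, adjusted p = 0.0582). It was lost too when only the groups compared were fitted, with the difference unchanged (adjusted p = 0.0532). After a second quantile normalization the difference was -0.13 (adjusted p = 0.212), and with each array centred on its median -0.19 (adjusted p = 0.0709). Genes typical of other tissues moved the same way. Of the 50 other-tissue probe sets 20 were called, all lower with BB sera, and 47 were lower at all, with a median of -0.20.

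Il10 followed these other-tissue genes from array to array in the second set. Their mean level averaged 4.51 with d60 DRlyp/lyp serum, 4.46 with d60 DR+/+ serum and 4.68 with allogeneic serum, and it ran from 4.34 to 4.93 over the 32 arrays. Pearson's r with Il10 was 0.70 over these 32 arrays (Spearman's rho 0.65) and -0.06 over the 21 of the first set (rho -0.14). Without the 2 arrays farthest from the median of the other-tissue mean, r was 0.59 (n = 30) and -0.21 (n = 19). With the other-tissue mean as a covariate the Il10 difference was -0.06 (adjusted p = 0.804). The SD of all values within an array, which RMA leaves unequal here, was 1.99 to 2.17 with d60 DRlyp/lyp serum, 2.00 to 2.20 with d60 DR+/+ serum and 1.81 to 2.11 with allogeneic serum. Cell markers also differed between these sera. The mean level of 11 monocyte genes was 6.93 with DRlyp/lyp serum (6.83 to 7.01) and 7.02 with DR+/+ serum (6.77 to 7.19), against 6.30 with allogeneic serum (5.79 to 7.30), with 6 called higher and 2 lower, and that of 10 platelet genes was 9.88, 9.50 and 10.25 for the same sera, with 1 called higher and 5 lower. B-cell genes were called higher in 4 of 6 (median difference 0.61, against 0.63 for the monocyte genes), T-cell genes higher in 6 and lower in 1 of 14 (0.28), and natural killer and cytotoxic genes higher in 3 of 11 (0.16). Erythroid genes were called higher in 1 and lower in 1 of 6 (0.20) and neutrophil genes in 0 of 7. All these counts stand beside 40.3% of all probe sets called. The part of these cell types in the Il10 difference was not tested.

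**Figure D3:**
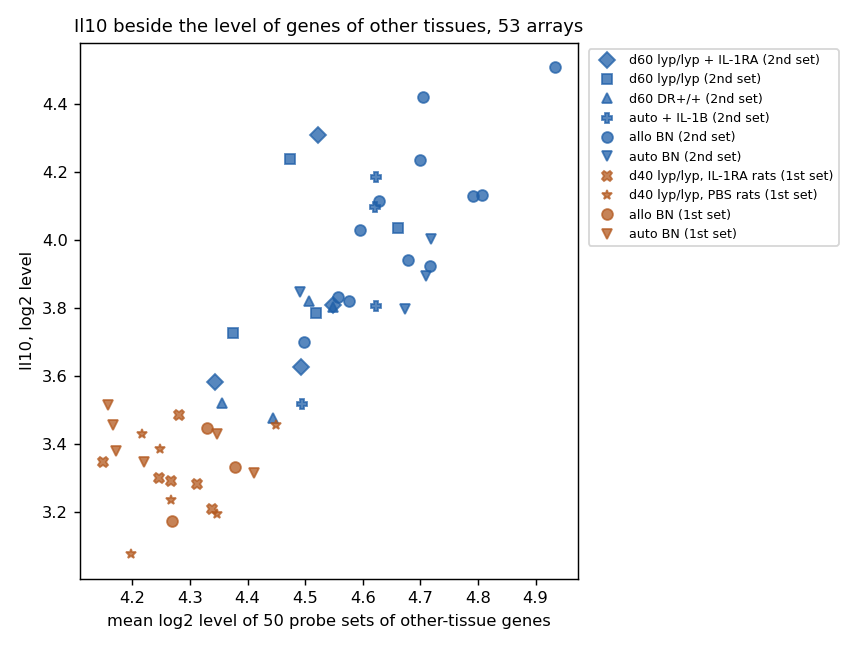
Il10 log2 level against the mean log2 level of 50 probe sets of genes of other tissues, 1 point per array (blue for the second set, brown for the first; shapes are sera). In the second set the 2 measures go together (r = 0.70, n = 32), with allogeneic arrays at the upper right and d60 DR+/+ arrays at the lower left, and in the first set they do not (r = -0.06, n = 21).

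The genes most like each of the 5 were found by Pearson's r over the 32 arrays of the second set, with the r over the 21 arrays of the first beside it. For Il10 they were C1qc, a complement chain made by macrophages (r = 0.79 and -0.11), the lipid receptor S1pr3 (0.79 and 0.06) and Mettl17 (0.79 and -0.09). All 3 were near background too, and none held in the first set. For Ctla4 they were Vwa3b (0.82 and 0.29), Fam234b (0.80 and 0.41) and the synaptic vesicle gene Syt2 (0.77 and 0.20), again all near background. Tgfb1 went with Gigyf1 (0.74 and 0.38), Nod1, a sensor of bacterial cell wall (0.72 and 0.40), and Taf6, a part of the general transcription machinery (0.71 and 0.21). Il2ra went with Rp9 (0.68 and 0.08), the nucleoside transporter Slc29a1 (0.66 and 0.16) and Narf (0.64 and 0.55). The arrays share sera, cultures and array set, so these values only describe how the levels moved.

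Il2rb was the gene whose closest match held in both sets. Itgad, the alpha D integrin chain, had an r of 0.91 in the second set and 0.89 in the first (Spearman's rho 0.85 in each). Without the 2 arrays farthest from the median of Itgad in each set r was 0.86 (n = 30) and 0.79 (n = 19). Next came the proteasome subunit Psmc3 (0.87 and 0.69) and the vesicle-tethering subunit Trappc5 (0.86 and 0.62). DR+/+ replicate 4, lowest for Il2rb at 6.41, had an Itgad level of 5.86, also the lowest. Its 14 T-cell genes averaged 7.96 and its 11 natural killer and cytotoxic genes 7.36, the lowest of the 4 DR+/+ arrays for each. The T-cell mean was lowest in replicate 4 also with d60 DRlyp/lyp serum (8.28) and with that serum plus IL-1RA (8.30). With IL-1B it was lowest in replicate 1 (8.17). In the replicate 4 arrays of the DRlyp/lyp sera, without and with IL-1RA, Il2rb was 7.42 and 7.74. Il2rb had an r of 0.73 and 0.40 with the mean of the natural killer and cytotoxic genes and of 0.56 and 0.23 with that of the T-cell genes, in the second and in the first set. Il2ra had 0.56 and 0.35 with the T-cell genes, and Il10 and Ctla4 had negative values with them, -0.50 and -0.28 for Il10 and -0.43 and -0.51 for Ctla4. Between the receptor chains Il2ra and Il2rb r was 0.49 and 0.38. Il10 and Ctla4 had an r of 0.48 in the second set and 0.07 in the first.

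**Figure D4:**
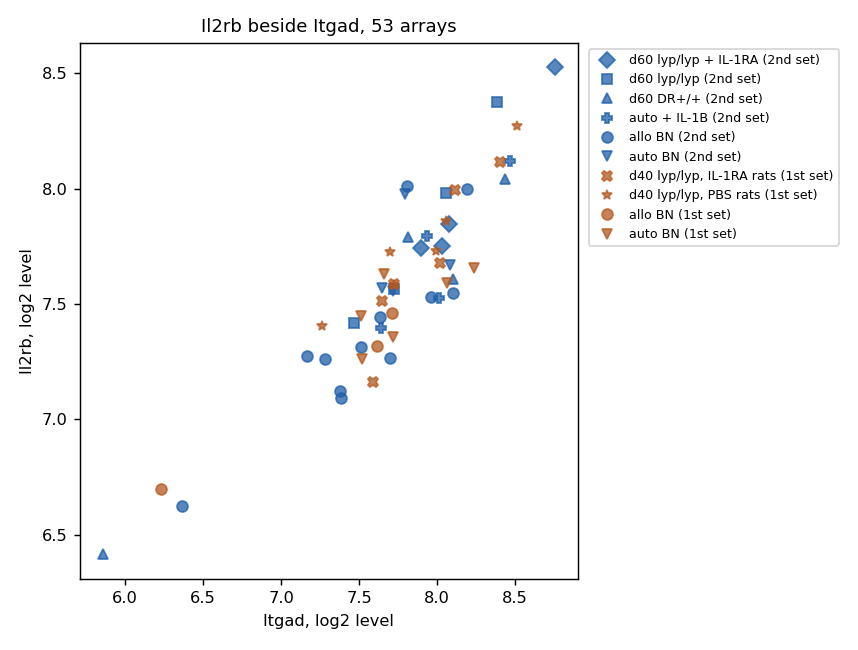
Il2rb log2 level against Itgad log2 level, 1 point per array (blue for the second set, brown for the first; shapes are sera). The arrays of both sets lie along one band (r = 0.91, n = 32, and r = 0.89, n = 21), and the 3 lowest are d60 DR+/+ replicate 4, an allogeneic array of the second set and one of the first.

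The pathways around the 5 genes were described from 4 lists of genes with 1 symbol on the array: 17 regulatory T-cell and checkpoint genes, 13 of the interleukin-2 pathway, 10 of the interleukin-10 pathway and 22 of the TGF-beta pathway, 62 in all, of which 19 were near background. Another 17 listed genes, among them Foxp3, Pdcd1, Lag3 and Tgfbr2, were not analysed here. With both d60 BB sera against allogeneic serum 25 of the 62 were called, 16 higher and 9 lower. That is 40.3% of the lists, as of all probe sets (40.3%, with 19.4% higher and 20.9% lower). The split between higher and lower moved with the scaling, to 18 higher and 5 lower with arrays centred on their medians and to 5 and 9 after a second quantile normalization. Without DR+/+ replicate 4 it was 19 and 12.

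Checkpoint and regulatory genes went both ways, with 3 of 17 higher and 1 lower (23.5%, beside 40.3% of all probe sets), a median of 0.04 against -0.05 over all probe sets. Ebi3, the subunit shared by interleukin-27 and interleukin-35, was higher by 0.66 (9.39 with BB sera, 8.73 with allogeneic serum, limma SE 0.15, adjusted p = 0.000907). Icoslg, the ligand of the co-stimulatory receptor ICOS, was higher by 0.65 (SE 0.12, adjusted p = 0.000166) and passed in all 20 fits without 1 array and under 13 other settings. Cd86, a ligand of Ctla4 and CD28, was higher by 0.43 (adjusted p = 0.0376), but lost its call without allogeneic replicates 10 or 12, DR+/+ replicates 1 or 4, or DRlyp/lyp replicates 1 or 2. Entpd1 (CD39), an ectonucleotidase of regulatory T cells, was lower, at -0.25 (adjusted p = 0.0437), near background at 5.05 with BB sera and 5.30 with allogeneic serum. Its call was lost in 10 of 20 fits without 1 array, namely without allogeneic replicates 4, 5, 6, 9, 11 or 14, DR+/+ replicates 2 or 3, or DRlyp/lyp replicates 1 or 3.

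Of the interleukin-2 pathway 1 of 13 was higher and 1 lower (15.4%), with a median of 0.16. Jak1, the kinase bound to Il2rb and to other cytokine receptors, was higher by 0.70 (12.16 with BB sera, 11.46 with allogeneic serum, SE 0.17, adjusted p = 0.00187). Socs1, an inhibitor of that signalling, was lower, at -0.30 (adjusted p = 0.0101, lost without DRlyp/lyp replicate 3), and near background at 4.75 with BB sera and 5.06 with allogeneic serum. Of the interleukin-10 pathway 2 of 10 were higher and 1 lower (30%), with a median of 0.13. The kinase Tyk2 was higher by 0.91 (SE 0.19, adjusted p = 0.000428) and the receptor chain Il10ra by 0.48 (SE 0.16, adjusted p = 0.0160), while Il24, a cytokine of the interleukin-10 family, was lower, at -0.32 (adjusted p = 0.00930), and near background at 4.52 with BB sera and 4.84 with allogeneic serum. With the other-tissue mean as a covariate it stood at -0.04 (adjusted p = 0.876). After a second quantile normalization 7 of these calls were lost. Jak1 stood at 0.21, Il10ra at 0.13, Ebi3 at 0.29, Socs1 at -0.19, Il24 at -0.19 and Entpd1 at -0.16, while Cd86 kept its size at 0.43 (adjusted p = 0.0584).

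Of the TGF-beta pathway 10 of 22 were higher and 6 lower (72.7%, beside 40.3% of all probe sets), with a median of 0.24. Tgfbi, a matrix protein induced by TGF-beta and made by monocytes, was the largest, higher by 2.10 (7.95 with BB sera, 5.85 with allogeneic serum, SE 0.32, adjusted p = 1.21e-05). It too passed in all 20 fits without 1 array and under 13 other settings. Pmepa1, a feedback inhibitor, was higher by 1.02 (SE 0.24, adjusted p = 0.00106) and Smad7, an inhibitory Smad, by 0.85 (SE 0.22, adjusted p = 0.00268). Itgav, an integrin chain that activates latent TGF-beta, was lower, at -0.67 (SE 0.17, adjusted p = 0.00257). Pmepa1 and Smad7 did not pass with DRlyp/lyp serum alone, nor Itgav with DR+/+ serum alone. With the other-tissue mean as a covariate 3 of the 62 genes were called in place of 25.

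Against autologous serum the same pathways gave few calls. With d60 DR+/+ serum 1 of 62 was called, 1.61% beside 1.35% of all probe sets. This was Tgfbi, at 8.06 with DR+/+ serum and 6.14 with autologous serum, a difference of 1.91 (SE 0.50, adjusted p = 0.0368). It was lost without DR+/+ replicates 1, 2 or 3 and without autologous replicates 7 or 10, and with only the groups compared fitted (adjusted p = 0.292), while the difference stayed between 1.70 and 2.24 over all its alternatives. Monocyte genes moved in the same comparison, with 3 of 11 called higher, a median difference of 0.72 and means of 7.02 with DR+/+ serum and 6.32 with autologous serum. Platelet genes were called lower in 2 of 10 (median -1.17) and natural killer and cytotoxic genes in 1 of 11 (-0.34). Their part in the Tgfbi difference was not tested. In the other 10 comparisons of sera limma called 0 of 62, with 0 to 10 of them at an unadjusted p under 0.05, beside the shares given above for the 5 genes. Between autologous arrays of the first and second sets 34 of 62 were called, 54.8% beside 55.0%, 16 of them higher and 18 lower in the first set.

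**Figure D5:**
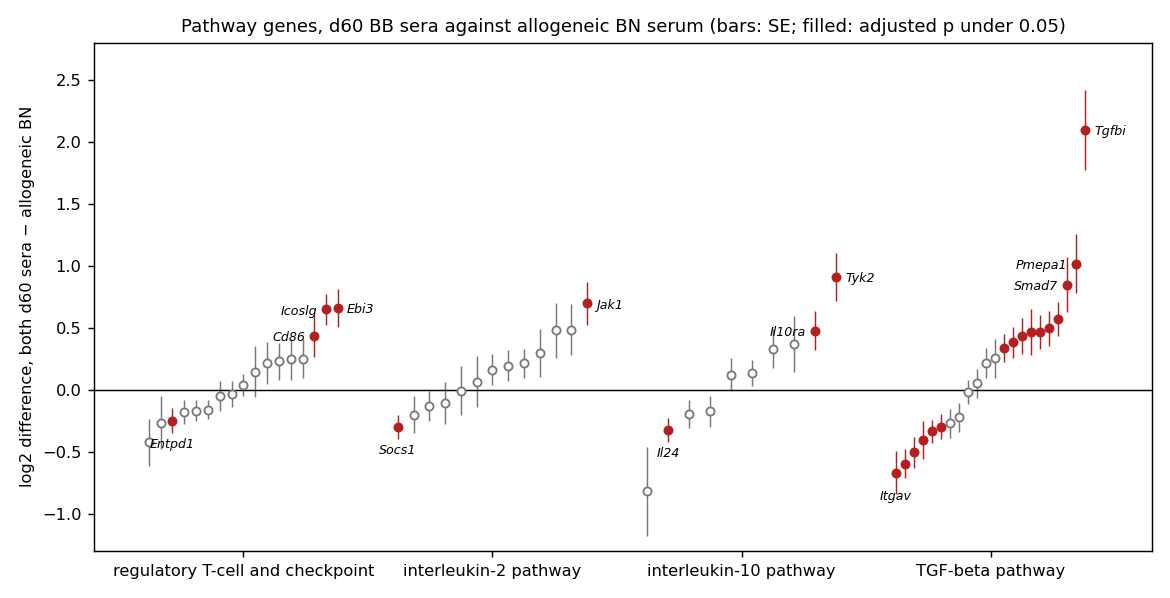
Log2 difference with both d60 BB sera against allogeneic BN serum for 62 genes of 4 pathways, sorted within each pathway. Bars are SE, filled points have an adjusted p under 0.05, and up to 4 called genes a pathway are named. Calls lie on both sides of 0 in each pathway, 16 higher and 9 lower in all, and Tgfbi stands highest at 2.10.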

How the data were processed

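Values were taken from the deposited table of 53 arrays, in which the authors gave log2 expression per probe set. Per the submitters' processing notes, RMA and Partek 6.2 were used, without a version for RMA. Differences near background are compressed by that method. Of 31099 probe sets 57 controls were left out. Annotation gave 1 symbol to 20826 probe sets, several to 436 and none to 9780.

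R 4.3.3 and limma 3.58.1 fitted the means of 10 group-by-set cells to all 53 arrays, with variance moderation along the mean level and Benjamini-Hochberg adjustment per comparison. Probe sets with an adjusted p under 0.05 were called. SE and 95% intervals are limma's. The fit was tested on simulated data. Figures used matplotlib 3.10.9 in Python 3.11.15. The genes, lists, array sets and tests were chosen with earlier results of these data known. Pathway lists used, per gene, the probe set with the highest mean, and named up to 4 called genes with the largest difference. The 3 most alike genes were those with the highest Pearson r, leaving out unnamed loci. Itgad and the quality values of single arrays were singled out after their values were seen.

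Whether replicate numbers pair arrays was checked on the correlation of same-numbered arrays' deviations from group means, with a minimum r of 0.1 for every pair. They paired d60 DRlyp/lyp with DR+/+ serum (lowest r 0.175), d40 IL-1RA with d40 PBS serum (0.401) and d40 IL-1RA with autologous serum (0.129). Alternatives covered pooled sets, the set or the replicate as a block, scaling, filters, weights, covariates, the groups compared alone, a stricter threshold and each array left out.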

Additional observations from a re-analysis of the deposited data

Results flagged for a closer look

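Of 40 gene-by-serum groups of 4 to 6 arrays, 1 held an array far from its others. Il2rb with d60 DRlyp/lyp serum plus IL-1RA was 8.53 in replicate 2, while the other 3 arrays lay between 7.74 and 7.84. The gap took 0.867 of the group's range. If arrays are unrelated between sera, chance alone sets apart about 1 such group in 20. Replicate 2 was also the highest for Il2rb with d60 DRlyp/lyp serum (8.37), d60 DR+/+ serum (8.04) and autologous serum plus IL-1B (8.12). Whether the replicate number sets this array apart was not tested.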

How the results depend on the processing

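Counts of the 5 genes called were recomputed under 312 alternatives over 14 comparisons. They kept within 1.5 times in 293 and moved in 19. With both d60 BB sera against allogeneic serum the count of 1 became 0 with the sets pooled, quantile normalization again, arrays centred, probe sets above the median level only, an adjusted p under 0.01, the groups compared only (Il10 adjusted p = 0.0532), DRlyp/lyp serum alone or the other-tissue covariate. It became 2, with Il2rb added, with array weights (0.43, adjusted p = 0.0212) or the actin covariate (0.43, adjusted p = 0.0341), and 0 to 2 without 1 array. Over 20 such fits Il10 ran from -0.31 to -0.22, and passed in 18. Allogeneic against autologous serum gave 2 in place of 0, in each set, when the sets were pooled, where Il10 turned to 0.32 against -0.09 in the first. Between autologous arrays of the sets the count of 1 became 2 with the set as a block or array weights, and 0 with probe sets above the median only or the other-tissue covariate. After a second quantile normalization it stayed at 1, but that gene was Il2rb and not Il10. In the 7 comparisons with shared numbers the replicate block called 0 of 5, as without it, and gave Il10 in d60 DRlyp/lyp against DR+/+ serum at 0.29 (adjusted p = 0.684). That block changed no other call on the 5 genes. The d60 and IL-1B arrays, replicates 1 to 4, share no number with autologous replicates 7 to 10, so those comparisons had no block. In order of number the T-cell means were 8.62, 8.86, 9.07 and 8.28 with d60 DRlyp/lyp serum. They were 8.32, 8.75, 9.04 and 7.96 with d60 DR+/+ serum and 8.50, 8.89, 9.08 and 8.08 with autologous serum. Whether these arrays pair was not tested, so their intervals can hold spread that pairing would remove. In the 4 comparisons where the numbers did not pair by the minimum of 0.1, the lowest r ran from -0.231 to 0.0875. Their mean r was 0.384 for IL-1RA added to d60 DRlyp/lyp serum and 0.344 for d40 PBS against autologous serum. For allogeneic against autologous serum it was 0.302 in the first set and -0.01 in the second. Missing the minimum therefore does not show that arrays were unpaired. Each gene, comparison and alternative was also counted apart. The sign changed, with no call in the main fit or in that alternative, in 46 such cases, and in 69 without 1 array. Some of these differences were called under another alternative, as Il2rb with BB sera was. Pathway genes called with BB sera numbered 25, against 5 pooled, 14 quantile-normalized, 15 at 0.01, 15 with DRlyp/lyp serum alone and 3 with the other-tissue covariate, where Entpd1 turned to 0.0545, and 20 to 31 without 1 array. With DR+/+ against autologous serum 1 became 2 pooled, 2 with the set block, 2 above the median, 8 with array weights, 0 at 0.01 and 0 with the groups alone, and 0 to 6 without 1 array. Between the sets 34 became 5 with the other-tissue covariate, and 27 to 37 without 1 array. Counts over all probe sets moved too. The 12510 called with BB sera became 2531 pooled, 634 with the covariate and 7008 at 0.01. The 418 with DR+/+ against autologous serum ran from 43 to 1118 without 1 array, and became 0 with the groups compared only. For allogeneic serum in the first set the 332 ran from 0 (without allogeneic replicate 2) to 978 without 1 array. That count became 3 with the groups compared only and 0 with the actin covariate. In the second set the 3 ran from 0 to 780 without 1 array. The filter on the median level took Il10 itself out, and the stricter threshold left its -0.26 and adjusted p of 0.0185 as they were. The cause of the other changes was not tested. The other-tissue covariate and the single d60 sera were chosen after seeing the data. Signal near background limits Il10, Ctla4 and Tgfb1, and also Il2ra, at least in the second set.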
